A study of Drosophila melanogaster with 30 samples.

Results

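The opsins of the Drosophila eye and ocelli are the 7 rhodopsin genes ninaE, Rh2, Rh3, Rh4, Rh5, Rh6 and Rh7. They were taken by symbol from the count table of 17562 genes, and all 7 were found and passed the filter on low counts in every comparison. RNA levels were read from input libraries, and recovery in the m6A immunoprecipitation (IP) from the ratio of IP to input. Heads of male flies aged 1 to 2 days were used, with 200 heads per replicate, and 3 replicates in each of 5 groups. All flies carried the daughterless driver daGal4, which is active throughout the body, so no group was altered in photoreceptors alone, and crosses were raised at 25 °C. Control flies carried the control RNAi line of the Vienna KK background, RNAi flies a Vienna KK insertion against dTrmt10A (CG14618, the fly homolog of the human methyltransferase gene TRMT10A), and UAS flies a tagged UAS-dTrmt10A transgene. All 3 genotypes were sampled in basal conditions, and control and UAS flies also directly after heat shock (HS) of 30 min at 38.5 °C. The UAS transgene and the KK insertions sit in different stocks and landing sites, so the effect of dTrmt10A and that of the stock cannot be told apart in UAS against control.

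Each of the 30 libraries was polyA+ RNA. Total counts on genes ranged from 20110909 to 51006574 in input and from 16255688 to 30456825 in IP, so 3 counts, the detection floor, stood for at most 0.185 CPM (CPM being counts scaled to a common library total). CG14618 lay between 7.42 and 8.60 CPM in control basal, 3.75 and 4.01 in RNAi, 146 and 188 in UAS basal, 5.34 and 5.90 in control HS and 235 and 252 in UAS HS, in the direction of the labels. The eye pigment transporter w, a common marker of fly transgenes, was at 2.98 to 3.71 CPM in control basal, 537 to 628 in RNAi and 8.92 to 10.0 in UAS basal. The yolk protein gene Yp1, a gene of females, lay between 0.268 and 450 CPM within the basal groups of heads labelled male, and was over 20 CPM in 5 input libraries (control basal replicate 1, RNAi replicate 2, UAS basal replicates 1 and 2 and UAS HS replicate 3). The input comparisons were therefore repeated without those libraries, a choice made after seeing the data. Genes listed for photoreceptors had RNA in every group. The 22 listed phototransduction genes, the calmodulin gene Cam among them, summed to between 30784 and 40870 CPM. The 7 rhabdomere genes summed to between 2145 and 2990 CPM. The part of other cells in these sums was not tested.

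An opsin is the protein part of a rhodopsin, the light receptor of a photoreceptor, and it carries a vitamin A derived chromophore. When light turns the chromophore, the rhodopsin activates a Gq protein and, through it, the phospholipase C NorpA and the TRP channels. In each unit eye of the fly, the 6 outer photoreceptors use Rh1, the product of ninaE, for motion and dim light. The inner photoreceptors R7 and R8 serve colour vision and come in pairs: pale units hold the ultraviolet opsin Rh3 in R7 and the blue opsin Rh5 in R8, and yellow units hold the ultraviolet opsin Rh4 in R7 and the green opsin Rh6 in R8. Rh2 is the opsin of the ocelli, the simple eyes on top of the head. Rh7 is described in brain clock neurons as well as in the eye.

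The 7 genes lie on 3 chromosome arms of dm6. ninaE (FBgn0002940) spans 3R:19886255-19888206 on the minus strand with 5 exons. Rh2 (FBgn0003248, 3R:18899423-18901019, plus strand, 4 exons), Rh3 (FBgn0003249, 3R:20081060-20082450, minus strand, 1 exon) and Rh6 (FBgn0019940, 3R:15483158-15484699, plus strand, 3 exons) lie on the same arm. Rh5 (FBgn0014019, 2L:12008153-12009832, plus strand, 3 exons) has 2 annotated transcripts. Rh4 (FBgn0003250, 3L:16852527-16862517, minus strand, 2 exons) holds the genes sina, sinah and CG13029 within its span, and Rh7 (FBgn0036260, 3L:12164205-12175482, minus strand) has 4 exons. In all 7 cases 0 other genes overlapped an opsin exon, so the counts do not mix with those of neighbours. Summed exon length was 1349 to 1588 bases for 6 of the genes and 4014 bases for Rh7.

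Fly opsin promoters are known for a short element upstream of the start site, the rhodopsin core sequence I (RCSI), with a homeodomain type core. The 90 bases from 110 to 21 before the annotated start are shown for the genes whose values are compared in the rest of the report, from the RefSeq dm6 sequence, 5′ to 3′ on the strand of the gene, with each match to the core (TAAT, any 4 bases, then TT) on that strand in capitals. For Rh5 only the element with 10 bases on each side is shown, upstream of the shorter transcript Rh5-RA, because that stretch lies in the first exon of Rh5-RB. ninaE is the opsin of the outer photoreceptors, at 3R:19888227-19888316 on the minus strand.
ninaE: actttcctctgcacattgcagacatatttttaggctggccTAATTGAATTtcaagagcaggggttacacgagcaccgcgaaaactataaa
Rh2, the opsin of the ocelli, at 3R:18899313-18899402 on the plus strand.
Rh2: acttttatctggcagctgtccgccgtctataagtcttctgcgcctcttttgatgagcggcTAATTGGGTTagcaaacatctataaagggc
Rh3 and Rh5 are the opsins of the pale pair, at 3R:20082471-20082560 on the minus strand and 2L:12008317-12008346 on the plus strand.
Rh3: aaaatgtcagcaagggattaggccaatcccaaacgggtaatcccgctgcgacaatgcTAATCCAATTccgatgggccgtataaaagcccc
Rh5: taatccgtctTAATTAGATTctttggcggg
Rh4 and Rh6 are the opsins of the yellow pair, at 3L:16862538-16862627 on the minus strand and 3R:15483048-15483137 on the plus strand.
Rh4: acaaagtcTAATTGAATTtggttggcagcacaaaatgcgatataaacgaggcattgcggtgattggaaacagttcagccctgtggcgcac
Rh6: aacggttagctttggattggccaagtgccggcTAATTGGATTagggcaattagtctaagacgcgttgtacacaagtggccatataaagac
Rh7, with no match in this window, is shown for contrast, at 3L:12175503-12175592 on the minus strand.
Rh7: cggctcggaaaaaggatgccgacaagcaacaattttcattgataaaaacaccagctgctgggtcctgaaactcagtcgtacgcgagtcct

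The capitals start 70 bases before the start in ninaE, 50 in Rh2, 53 in Rh3, 102 in Rh4, 51 in Rh5 and 78 in Rh6. Of 13945 promoters of protein-coding genes, 7.01% hold this core on the strand of the gene in this window of 90 bases and 12.8% hold it on either strand. The stricter form with ATT in place of the last TT (TAAT, any 3 bases, then ATT) is in the window of ninaE, Rh3, Rh4, Rh5 and Rh6 and in 2.43% of all promoters on the strand of the gene. TAATCC, the site preferred by the homeodomain protein Orthodenticle (the gene oc), was searched on both strands from 250 bases before to 50 after the start. It was found 3 times at Rh3 and 2 times each at Rh5 and Rh6, counted from the Rh5-RA start for Rh5, and it overlaps the capitals at Rh3 and at Rh6 (there on the opposite strand). At ninaE, Rh2, Rh4 and Rh7 it was not found, and 8.74% of all promoters hold it. The shares over all promoters were counted from the outermost start of each gene. For Rh5 that is the start of Rh5-RB, where TAATCC was not found. There the stricter form on the strand of the gene lies at -140, outside the window, and a match to the core at -97, inside it. These matches describe letters and not bound sites.

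The opsins differed widely in level. Per kilobase of exon, ninaE was the most abundant of 17480 nuclear genes in control basal heads, at 9251 ± 811 CPM per kb (SD, n = 3). Rh4 came next among the opsins at 597 ± 29.4 CPM per kb, then Rh3 at 371 ± 5.13 and Rh6 at 271 ± 17.6. Rh5 at 67.5 ± 3.70 and Rh2 at 62.9 ± 2.99 CPM per kb were neighbours in this order and overlapped within their spread. Rh7 was lowest at 6.91 ± 0.209 CPM per kb. The ninaE level per kb was 15.5 times that of Rh4, 137 times that of Rh5 and 1339 times that of Rh7. The order was the same in the other groups except that Rh5 stood clear of Rh2 in UAS heads, at 116 ± 5.23 against 63.6 ± 5.41 CPM per kb in basal conditions. Together the 7 genes took between 1.67 and 2.00% of all input counts in basal libraries, of which ninaE alone took 1.47 to 1.77%.

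**Figure D1:**
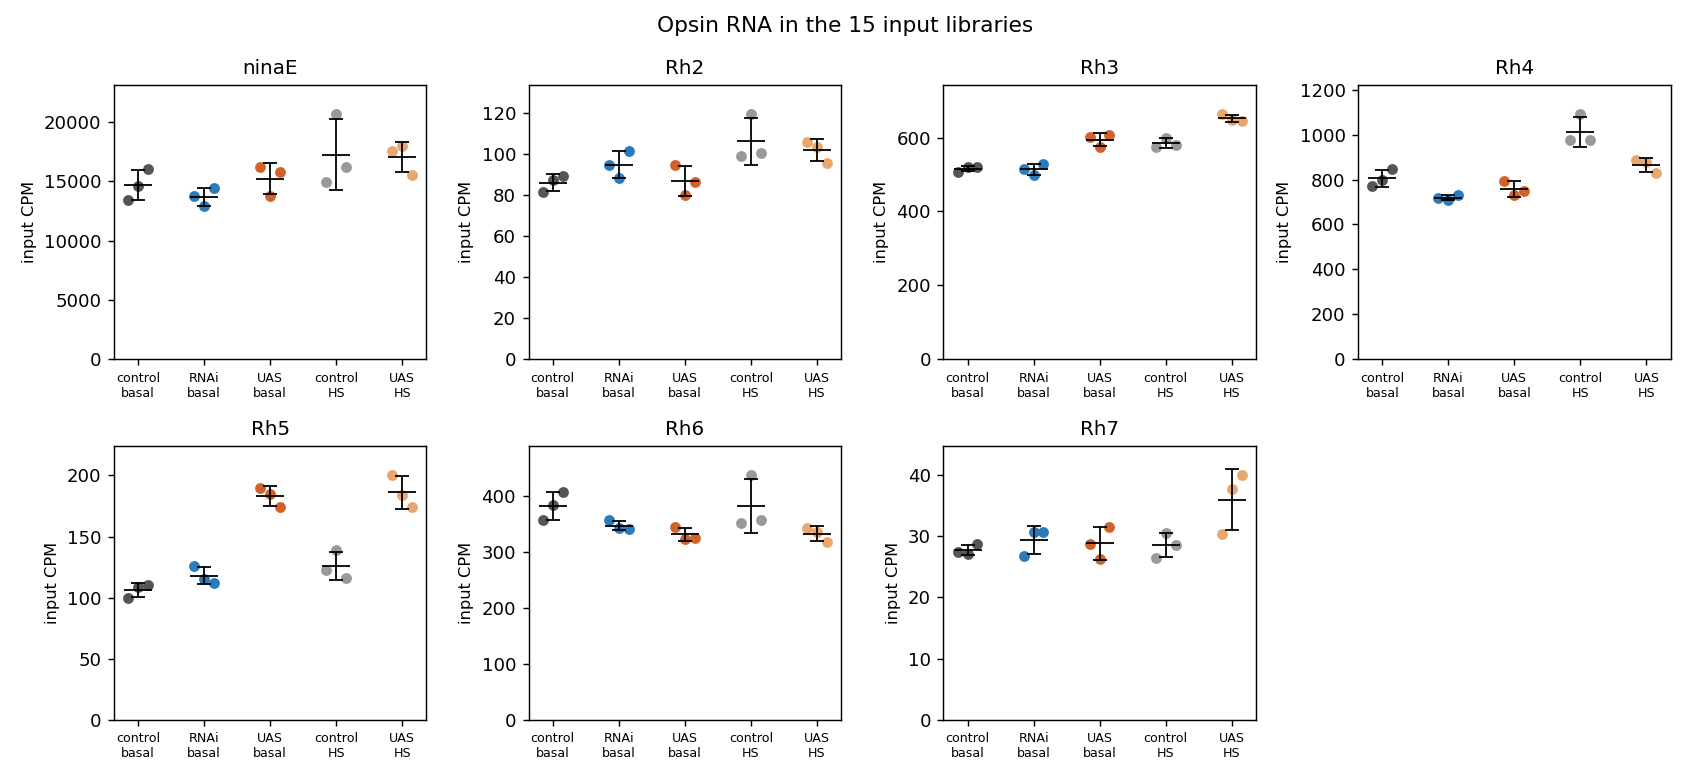
Input RNA of each opsin in CPM (TMM scaled over the 15 inputs), with the 3 libraries of each group as points, the mean as a bar and the SD as whiskers. Each panel starts at 0 and has its own scale. Rh5 lies between 174 and 200.3 CPM in all 6 UAS libraries and between 99.5 and 139 in the other 9.

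Upregulation of dTrmt10A was first compared with control in basal conditions, to ask whether opsin RNA differs with the transgene. Rh5 was higher in UAS heads. Its input levels were 99.5, 109 and 110.3 CPM in the control libraries and 190, 185 and 174 CPM in the UAS libraries. The groups did not overlap, and the lowest UAS library was well above the highest control library. The log2 change was 0.78 ± 0.07 (SE), a ratio of 1.72 (adjusted p = 6.6e-04, edgeR quasi-likelihood test over 10206 genes). Across all genes 2.81% passed in this comparison, and 1 of 7 opsins did. In bulk heads, a larger number of Rh5 photoreceptors and more Rh5 RNA in each of them cannot be told apart.

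The other opsins differed less. Rh3, the ultraviolet opsin of the same pale units, was at 507, 520 and 520 CPM in control and at 603, 574 and 607 CPM in UAS heads. The groups did not overlap for Rh3, but the log2 difference of 0.20 ± 0.05 did not pass (adjusted p = 0.089). If genotypes did not differ, groups of this size would still separate completely for 10% of genes by chance. The observed share over all genes is not given, so non-overlap is a description here and below, and does not stand in for a call. Rh6, the partner of Rh5 in R8, was at 356, 383 and 406 CPM in control and at 344, 323 and 325 CPM in UAS heads, also without overlap, and its log2 difference of -0.21 ± 0.06 did not pass either (adjusted p = 0.13). Rh4 was at -0.09 ± 0.06, ninaE at 0.05 ± 0.10, Rh2 at 0.01 ± 0.08 and Rh7 at 0.06 ± 0.08 on the log2 scale, with adjusted p from 0.52 to 0.97. DESeq2's Wald test called 2 opsins here, Rh5 and Rh3 (adjusted p = 0.029 for Rh3).

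After HS the pattern of Rh5 was the same. Control HS libraries held 123, 139 and 116 CPM and UAS HS libraries 200.3, 184 and 174 CPM, again with no overlap. Rh5 rose by 0.55 ± 0.09 on the log2 scale, a ratio of 1.47 (adjusted p = 0.011, edgeR), in a comparison where 6.53% of 10287 genes passed. The call was lost without control HS replicate 1, where the log2 change was 0.54 and the adjusted p 0.058. Rh4 was lower in all UAS HS libraries (886, 879 and 829 CPM) than in control HS (974, 1091 and 975 CPM), with a log2 difference of -0.24 ± 0.07 and an adjusted p of 0.069. The numbered replicates of these groups deviated together. With the replicate number as a block Rh4 passed (log2 change -0.24, adjusted p = 0.028), as did Rh7 (0.32, adjusted p = 0.027). In that fit 3 opsins were called instead of 1, and 1195 of all 10287 genes instead of 672. Rh7 lay at 26.5, 30.5 and 28.6 CPM in control HS and at 30.3, 37.6 and 40.0 CPM in UAS HS, where the groups overlapped by 1 library. For Rh3 (0.15 ± 0.05), Rh6 (-0.21 ± 0.09), Rh2 (-0.07 ± 0.08) and ninaE (-0.03 ± 0.12) the adjusted p was between 0.14 and 0.92.

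Leaving out the 5 libraries with high Yp1 kept Rh5 past the threshold at a log2 change of 0.68 (adjusted p = 1.9e-04) in basal conditions, with 1 UAS library left whose spread was taken from the controls, and at 0.60 (adjusted p = 0.014) after HS. The basal difference was smaller without those libraries. Transgene and stock differ together between these groups, as w does, and the part of either in the Rh5 level was not tested.

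The balance of Rh3 with Rh4 and of Rh5 with Rh6 in bulk heads was then given as a share of counts per kb. This share does not depend on library scaling, and it does not show which cells held the RNA. The Rh3 share of Rh3 and Rh4 was 39.0, 38.7 and 37.3% in control basal, 41.1, 40.6 and 41.3% in RNAi and 42.4, 43.3 and 44.1% in UAS basal libraries. After HS it was 36.4, 34.8 and 36.6% in control and 42.1, 41.7 and 43.0% in UAS. The Rh5 share of Rh5 and Rh6 was 20.0, 20.2 and 19.6% in control basal, 24.0, 23.2 and 22.8% in RNAi and 33.1, 33.9 and 32.4% in UAS basal libraries. After HS it was 23.9, 22.2 and 22.5% in control and 34.4, 32.9 and 32.9% in UAS. Both shares of the pale opsins were thus lowest in control basal or control HS heads and highest in UAS heads, with RNAi between them in basal conditions.

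In UAS against control the Rh5 share was 13.2 percentage points higher in basal conditions and 10.5 points higher after HS, and the Rh3 share 4.90 and 6.32 points higher. In RNAi against control the differences were 3.39 points for Rh5 and 2.66 points for Rh3. In all 6 of these comparisons the libraries of the groups did not overlap, and the exact two-sided permutation test over libraries gave p = 0.1, the smallest that 3 against 3 allows (adjusted p = 0.17 over 15 share comparisons). A design of this size cannot reach 0.05. The RNAi and UAS comparisons share the control basal libraries, so their common direction is not independent. In control heads HS moved the Rh3 share by -2.40 points and the Rh5 share by 2.92 points, also without overlap, while in UAS heads the differences were -0.98 and 0.28 points with overlap (p = 0.2 and 0.7, exact permutation test). The sum of the 7 opsins as a share of all input counts was lower after HS in UAS heads by 0.26 points, without overlap (difference -0.26, exact permutation p = 0.1), and the libraries overlapped in the other comparisons. Unlike the Rh3 and Rh5 shares, this share falls when other genes take more counts. Heat-inducible genes took 14.9 to 15.1% of counts in UAS HS inputs against 0.0938 to 0.119% in UAS basal inputs. With TMM scaling the log2 change of all 7 opsins was above 0 there. The part of the heat-inducible genes in the lower share was not tested.

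**Figure D2:**
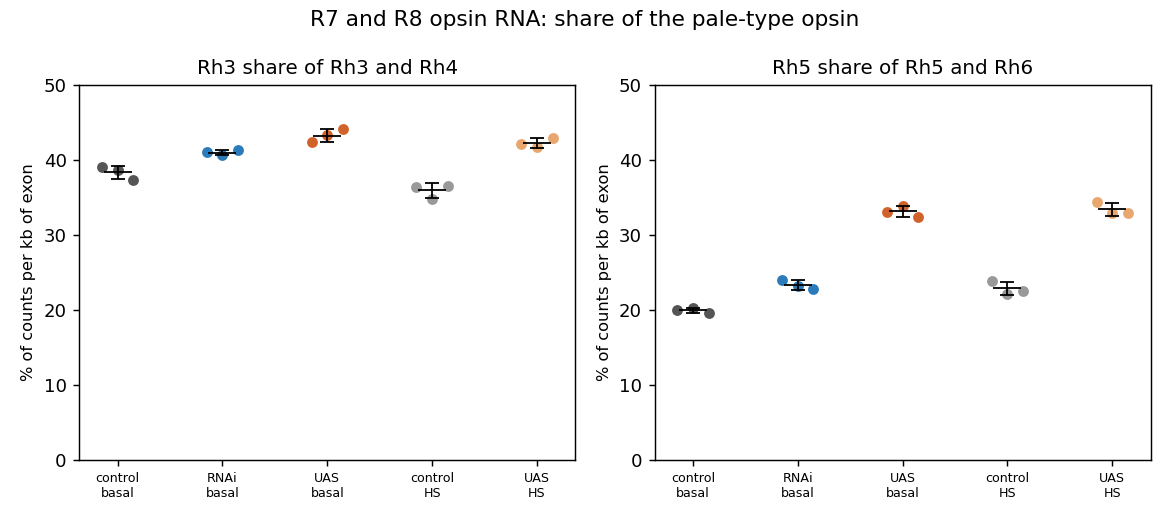
Share of Rh3 among Rh3 and Rh4 (left) and of Rh5 among Rh5 and Rh6 (right) in bulk head RNA, as the percent of counts per kb of exon. Points are the 3 libraries of each group, bars the mean and whiskers the SD. The Rh5 share lies between 32.4 and 34.4% in UAS libraries and between 19.6 and 24.0% in all others.

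Genes that act around the opsins were read from lists chosen for their roles. Of the 20 regulators of opsin genes, 0 passed in UAS against control in basal conditions, by edgeR, with a median log2 difference of 0.0055 against -0.0018 over all genes. After HS 2 of 20 rose: oc, which encodes Orthodenticle (0.34 ± 0.08, adjusted p = 0.045), and toy, a Pax6 gene (0.39 ± 0.09, adjusted p = 0.039). In basal conditions oc was at 12.8, 17.6 and 13.5 CPM in control and 16.3, 15.7 and 16.8 CPM in UAS heads, with overlap. The Rh5 and Rh6 choice in R8 is known to run through melted (melt) and warts (wts), which promote Rh5 and Rh6, respectively. Their log2 differences were -0.02 for melt and -0.10 for wts in basal conditions and -0.08 and 0.12 after HS, and none passed. Spineless (ss), which sets the yellow R7 fate, was at -0.26 and 0.07 and did not pass.

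Of the 22 genes that act after the opsin in phototransduction, 1 rose in UAS heads in basal conditions: stops, a SOCS box protein needed for NorpA levels (0.54 ± 0.08, adjusted p = 0.0077). After HS 5 rose and 0 fell, with a median of 0.12 over the list against -0.0042 over all genes (329 of 10287 genes rose and 343 fell). With the replicate block 7 of 22 phototransduction genes and 4 of 20 regulators rose, in a fit where 616 of 10287 genes rose and 579 fell. Markers of other cells differed by list in the fit without the block. The 9 neuron markers had a median of 0.12 with 0 past the threshold, and 9 fat body markers a median of 0.27 with 2 higher and 1 lower. Muscle markers had a median of 0.05 and glia markers one of -0.0094, each with 0 of 7 past the threshold. The part of these cells in the phototransduction values was not tested. The 5 genes that rose were norpA itself (0.47 ± 0.06, adjusted p = 0.0056), the channel accessory gene inaF-B (0.49 ± 0.11), the diacylglycerol kinase gene rdgA (0.26 ± 0.06), the lipid transfer gene rdgB (0.24 ± 0.05) and the rhodopsin phosphatase gene rdgC (0.28 ± 0.06). Of 13 tested genes for opsin folding, transport and chromophore, 1 fell in both conditions: rdhB, a retinol dehydrogenase gene of the pigment cells, by 0.66 in basal conditions (adjusted p = 0.0033) and by 0.95 after HS (adjusted p = 2.2e-04). It was at 227, 195 and 232 CPM in control basal and at 139, 144 and 131 CPM in UAS basal heads, without overlap. Among the 7 rhabdomere genes 0 passed in basal conditions and 1, crb, rose after HS (0.30 ± 0.07). Of 10 tested pigment and cone cell markers 1 rose and 1 fell in each condition, w (1.55 and 1.25) and bw (-0.61 and -0.71), and their part in the opsin differences was not tested.

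Knockdown of dTrmt10A was compared with control in basal conditions, where 0.714% of 10225 genes passed. By edgeR 0 of 7 opsins passed, 2 had an unadjusted p under 0.05 and DESeq2 also called 0. Rh4 was at 716, 709 and 730 CPM in RNAi heads against 769, 798 and 848 CPM in control, without overlap, with a log2 difference of -0.16 ± 0.05 (adjusted p = 0.26). Rh5 was at 126, 115.2 and 112 CPM, again above every control library, with a log2 difference of 0.15 ± 0.07 (adjusted p = 0.54). Rh6 was at 356, 342 and 340.5 CPM, of which the highest lay just under the lowest control library (-0.14 ± 0.06, adjusted p = 0.48). Complete separation of groups of this size would occur for 10% of genes by chance. The observed share was not counted, and 1017 of 10225 genes had an unadjusted p under 0.05 here (edgeR). ninaE (-0.10 ± 0.07), Rh2 (0.14 ± 0.07), Rh3 (8.3e-05 ± 0.05) and Rh7 (0.09 ± 0.07) also did not pass. Among the phototransduction genes norpA rose (0.47 ± 0.08, adjusted p = 0.022), and among the rhabdomere genes eys, the spacemaker of the space between rhabdomeres (0.37 ± 0.06, adjusted p = 0.032). Of 20 opsin gene regulators 0 passed in edgeR, including oc at 0.38. RNAi and control heads also differed in w, at 537 to 628 CPM against 2.98 to 3.71 CPM. This difference was larger than that of UAS heads, and its part in the RNAi values and shares was not tested.

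HS was compared with basal conditions within each genotype. These changes are relative to the bulk of genes, since the heat-inducible genes took 14.9 to 15.2% of HS input counts against 0.0938 to 0.165% in basal inputs. In control heads 4 opsins rose, in a comparison where 42.4% of 10219 genes passed: Rh4 (0.32 ± 0.07, adjusted p = 0.0054), Rh2 (0.29 ± 0.08, adjusted p = 0.019), Rh5 (0.23 ± 0.08, adjusted p = 0.036) and Rh3 (0.17 ± 0.05, adjusted p = 0.021). The 42.4% counts both directions. All 4 opsins called rose, while over all 10219 genes 1976 rose and 2361 fell. Whether 4 of 7 differs from these shares was not tested. Scaled by total library size instead, which moved the median of all genes to -0.36, 0 opsins rose and 3 fell: Rh6 (-0.37, adjusted p = 0.0033), Rh7 (-0.33, adjusted p = 0.0017) and Rh3 (-0.19, adjusted p = 0.0056), while Rh2, Rh4 and Rh5 were at -0.07, -0.04 and -0.12 without passing. Rh4 went from 769, 798 and 848 CPM to 974, 1091 and 975 CPM and Rh2 from 81.3, 87.3 and 89.1 to 98.7, 119 and 100.2 CPM, without overlap. ninaE was at 13453, 14596 and 16023 CPM in basal and 14911, 20656 and 16174 CPM in HS libraries, where the groups overlapped (0.22 ± 0.15, adjusted p = 0.27), and replicate 2 stood above the others. Rh6 (-0.02 ± 0.09) and Rh7 (0.03 ± 0.07) did not pass with TMM scaling.

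In UAS heads 3 opsins rose with HS, where 40.7% of 10352 genes passed: Rh4 (0.19 ± 0.06, adjusted p = 0.036), Rh2 (0.23 ± 0.08, adjusted p = 0.049) and Rh7 (0.32 ± 0.11, adjusted p = 0.047). With total library size their direction turned (Rh4 -0.18, Rh2 -0.14, Rh7 -0.05), as the median of all genes moved to -0.37, and 0 opsins rose and 5 fell: Rh6 (-0.36), Rh5 (-0.35), Rh3 (-0.24), ninaE (-0.21) and Rh4. Rh5 was at 190, 185 and 174 CPM before and 200.3, 184 and 174 CPM after HS (0.03 ± 0.07, adjusted p = 0.80). Rh3 (0.13 ± 0.06), ninaE (0.16 ± 0.09) and Rh6 (0.01 ± 0.06) did not pass with TMM scaling. These calls were near the threshold: 0 opsins passed without UAS basal replicate 2 or without UAS HS replicate 2, 1 passed without UAS basal replicate 3 or UAS HS replicate 1, and without the libraries with high Yp1 only ninaE passed (0.16, adjusted p = 0.012), in a fit with 1 UAS basal library left whose spread was taken from the HS libraries. In control heads only Rh4 passed without control basal replicate 1 (0.27, adjusted p = 0.021), which is also the library with high Yp1 there, and 2 opsins passed without control basal replicate 3. The call of Rh5 in control was lost on leaving out any 1 library other than control HS replicate 3.

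The response to HS was tested for a difference between UAS and control by an interaction term, which 0.0379% of 10544 genes passed. By edgeR 0 opsins passed, 0 had an unadjusted p under 0.05 and DESeq2 called 0. The largest differences were 0.28 ± 0.14 for Rh7 (adjusted p = 0.38) and -0.22 ± 0.11 for Rh5 (adjusted p = 0.365), so the calls made in one genotype and missed in the other do not show a difference between them. Other photoreceptor genes were also higher after HS with TMM scaling, where over all genes 1976 of 10219 rose and 2361 fell in control and 1938 of 10352 rose and 2278 fell in UAS heads: of 22 phototransduction genes 12 rose and 0 fell in control and 15 rose and 0 fell in UAS heads, including the light channel gene trp (0.34 ± 0.06 and 0.30 ± 0.06), and of 7 rhabdomere genes 6 rose and 1 fell in control and 6 rose in UAS heads. Among opsin regulators 8 of 20 rose and 3 fell in control, and 11 rose and 2 fell in UAS heads. hth, the homeobox gene of the dorsal rim, rose by 0.51 and 0.71, dve by 0.50 and 0.52, and salm fell by 0.76 and 0.50. Markers of other cells rose as well: 5 of 7 muscle markers in each genotype, and 3 of 9 neuron markers in control and 6 of 9 in UAS heads. Of 7 glia markers 3 rose and 1 fell in each genotype, and of 9 fat body markers 2 rose and 3 fell in control and 1 rose and 0 fell in UAS heads. The medians of the phototransduction list, 0.22 in control and 0.24 in UAS heads, are smaller than the shifts of all genes, -0.36 and -0.37, that total library size brings. The median of the muscle markers in control (0.39) and that of the rhabdomere genes in UAS heads (0.42) are larger than those shifts.

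**Figure D3:**
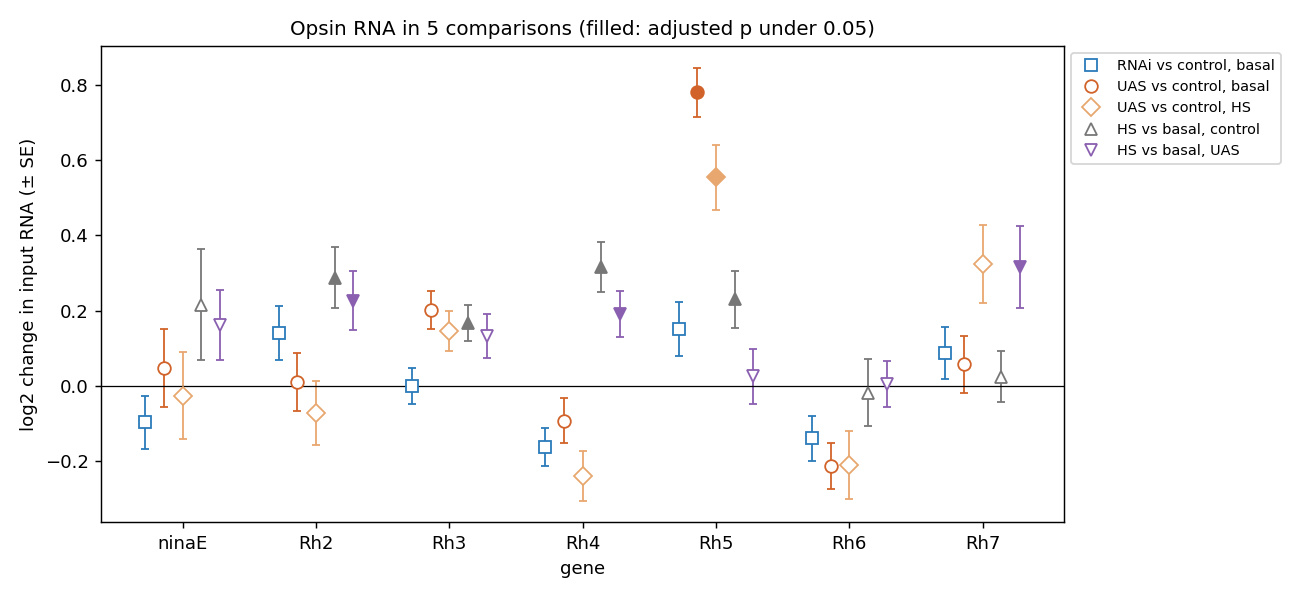
Log2 change of input RNA for each opsin in 5 comparisons, with the SE as bars, from edgeR with TMM scaling. Filled symbols have an adjusted p under 0.05. Rh5 in UAS against control stands highest at 0.78 in basal conditions and 0.55 after HS, and Rh6 is below 0 in both.

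Recovery in the m6A immunoprecipitation was measured as the log2 ratio of IP to input in each group. The value is relative to all RNA of the libraries, covers the whole gene, and is not a fraction of methylated molecules. ninaE stood apart from the other opsins: in control basal heads it was enriched, with 0.20, 0.55 and 0.49 in the 3 RNA samples and 0.45 ± 0.16 in the fit (adjusted p = 0.026, edgeR), while 4 opsins were depleted. The depleted ones were Rh2 (-1.07, -1.44 and -1.11 per sample, -1.18 ± 0.10 in the fit), Rh4 (-0.97 ± 0.09), Rh5 (-0.71 ± 0.10) and Rh3 (-0.68 ± 0.07), each with an adjusted p of 7.9e-05 or lower. Rh6 (-0.10 ± 0.09) and Rh7 (0.10 ± 0.07) were near 0 and did not pass. With 69.8% of 10080 genes past the threshold in one direction or the other, 5 of 7 is close to the background. By direction, 1 opsin was enriched and 4 were depleted, against 3555 and 3483 of the 10080 genes. The median of all genes was -0.05 and of the opsins -0.68.

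The samples of ninaE lay above every sample of Rh2, Rh3, Rh4 and Rh5 in control basal heads. The mean of ninaE was above 70.6% of 8892 expressed genes and above 83.2% of the 2724 among them with 1 to 2 kb of exon. Rh2 was above 2.63% of all and 3.19% of the genes of that length, Rh4 above 5.79 and 7.67%, Rh5 above 15.1 and 21.7%, Rh3 above 16.6 and 23.5% and Rh6 above 47.3 and 61.2%. Rh7, which is longer, was above 56.7% of all. The exons of ninaE hold the word AAACA 3 times and those of Rh7 6 times, Rh3 has it 1 time, and Rh2, Rh4, Rh5 and Rh6 have it 0 times. GGACT occurs 4 times in Rh6, 3 times in Rh7, 2 times each in ninaE and Rh2, 1 time each in Rh3 and Rh5 and 0 times in Rh4. Both words belong to the consensus of m6A sites, and across 8371 genes the median is 1.75 per kb for AAACA and 0.806 per kb for GGACT. Per kb of exon AAACA is at 1.89 in ninaE, 1.49 in Rh7 and 0.719 in Rh3. GGACT is at 2.84 in Rh6, above 97.4% of those genes, 1.47 in Rh2 and 1.26 in ninaE. It is at 0.747 in Rh7, 0.719 in Rh3 and 0.636 in Rh5. With 7 genes this is a description of the sequences only.

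The depletion of Rh2, Rh3, Rh4 and Rh5 held in all 5 groups. In RNAi heads Rh2 was at -1.43 ± 0.09, Rh4 at -1.12 ± 0.06, Rh5 at -1.03 ± 0.08 and Rh3 at -0.82 ± 0.06, where 73.7% of genes passed. UAS basal heads gave -0.93 ± 0.11 for Rh2, -0.85 ± 0.09 for Rh4, -0.59 ± 0.09 for Rh3 and -0.48 ± 0.10 for Rh5, where 62.4% of genes passed. In control HS heads (70.8% of genes) the values ran from -1.42 for Rh2 to -0.81 for Rh3, and in UAS HS heads (69.4% of genes) from -1.34 to -0.69. All 20 values passed in the fits with TMM scaling and in all other fits. Rh6 stayed within -0.10 and 0.06 in every group and did not pass, but with total library size it passed as depleted in control basal (-0.25, adjusted p = 0.012) and RNAi heads (-0.21, adjusted p = 0.011). Rh7 passed in control HS heads (0.24 ± 0.09, adjusted p = 0.036) and, with a term for each RNA sample, in RNAi heads (0.22, adjusted p = 0.0057), where DESeq2, its size factors and all libraries in one fit called it too. Its call in control HS was lost without replicate 1 (0.14, adjusted p = 0.28) or replicate 3 (0.28, adjusted p = 0.066), with no filter (0.19, adjusted p = 0.11), with at least 10 counts in every library (0.21, adjusted p = 0.0502) and with all libraries in one fit (0.22, adjusted p = 0.056), and with total library size it was at -0.03 (adjusted p = 0.73).

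ninaE was called in some groups and not in others, and the differences between groups are tested after the plot of IP/input by sample. It was enriched in RNAi heads, with 0.71, 0.42 and 0.69 per sample (0.60 ± 0.11, adjusted p = 5.2e-04), and in control HS heads, with 0.32, 0.21 and 0.51 (0.35 ± 0.13, adjusted p = 0.041). In UAS heads it was not: the samples were at -0.06, -0.10 and -0.29 in basal conditions (-0.15 ± 0.12, adjusted p = 0.31) and at -0.16, -0.06 and 0.29 after HS (-0.0047 ± 0.096, adjusted p = 0.97). With a term for each RNA sample, ninaE in UAS basal heads passed as depleted (-0.15, adjusted p = 0.043), and it passed as depleted in UAS HS heads with total library size (-0.23, adjusted p = 0.015) or without replicate 3 (-0.14, adjusted p = 0.042). The enrichment in control was moderate and depended on scaling and samples: with total library size it was 0.29 in basal conditions (adjusted p = 0.083) and 0.08 after HS (adjusted p = 0.57), and it lost the threshold without control basal replicate 2 (0.39, adjusted p = 0.093), without control HS replicate 1 (0.35, adjusted p = 0.062), without control HS replicate 3 (0.25, adjusted p = 0.26) or, in control HS, with at least 10 counts in every library (0.33, adjusted p = 0.053).

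**Figure D4:**
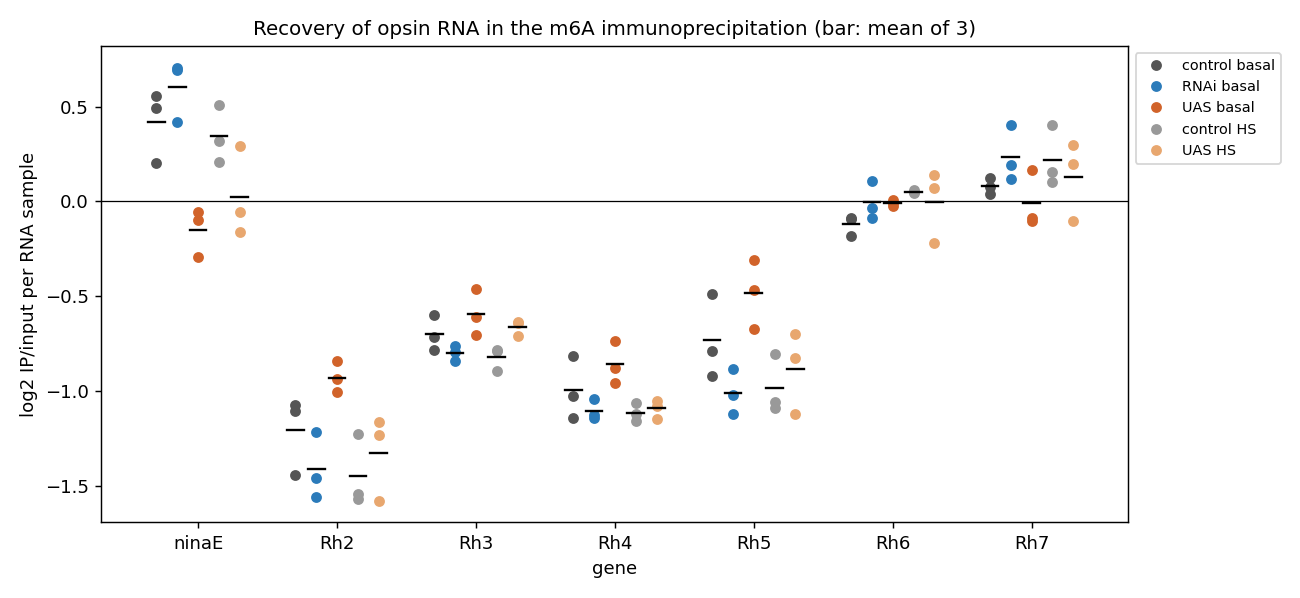
Log2 ratio of IP to input for each opsin, with each of the 3 RNA samples of a group as a point and the mean as a bar. Rh2, Rh3, Rh4 and Rh5 lie below 0 in all 15 samples, Rh6 and Rh7 near 0, and ninaE above 0 in the 9 control and RNAi samples but below 0 in all 3 UAS basal samples.

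The difference in IP/input between groups was tested in one model over IP and input. In UAS against control in basal conditions the samples of ninaE did not overlap (-0.29 to -0.06 against 0.20 to 0.55), and the log2 ratio was lower by 0.57 ± 0.20 without passing (log2 difference -0.57, adjusted p = 0.25, edgeR). The samples of Rh2 and of Rh6 did not overlap either, and both were higher in UAS heads. In this comparison 0% of 10368 genes passed, 1249 had an unadjusted p under 0.05 and DESeq2 called 246. IP and input of a sample come from the same RNA, and with a term for each RNA sample 826 genes passed and ninaE was among them (-0.56 ± 0.10, adjusted p = 0.0011). DESeq2 called it too (-0.60, adjusted p = 0.038). Over all alternatives its difference stayed between -0.67 and -0.44, with an adjusted p from 0.0011 to 0.62. Control basal replicate 1 and UAS basal replicates 1 and 2 had high Yp1 in input. IP/input was not tested without them as a set. The remaining samples of ninaE were at 0.55 and 0.49 in control and at -0.29 in UAS heads. ninaE is on the list of dTrmt10A-dependent genes that the study chose on these libraries, so this is not independent evidence of its direction.

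After HS ninaE was lower in UAS than in control by 0.30 ± 0.17 on the log2 scale (log2 difference -0.30, adjusted p = 0.42), and at -0.31 with a term for each RNA sample (adjusted p = 0.058), so it did not pass, and 0.945% of 10476 genes did. The samples overlapped there, with UAS HS replicate 3 at 0.29 among the controls. The other 6 opsins lay between -0.09 and 0.28 in UAS against control in both conditions, and none passed in any fit. After HS the samples of Rh3 did not overlap and were higher in UAS heads.

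In RNAi against control 0% of 10343 genes passed by edgeR, 304 had an unadjusted p under 0.05, and DESeq2 called 0. The 7 opsins lay between -0.30 and 0.16, with Rh5 lowest at -0.30 ± 0.13 (unadjusted p = 0.029, adjusted p = 1.00). Only the samples of Rh6 did not overlap, and they were higher in RNAi heads. HS against basal in control gave 0% of 10450 genes, with 874 at an unadjusted p under 0.05 and 20 called by DESeq2. Opsins lay between -0.22 and 0.19 there, and the samples of Rh6 were higher after HS without overlap. In UAS heads 0.0378% of 10588 genes passed with HS, and 0 opsins. With a term for each RNA sample 1969 genes passed there, among them Rh2 (-0.39, adjusted p = 0.0068) and Rh5 (-0.39, adjusted p = 0.0062), which were at -0.38 ± 0.19 in the fit without that term (adjusted p = 0.31 and 0.32). The samples of Rh5 went from -0.31, -0.67 and -0.47 to -0.70, -0.82 and -1.12 and did not overlap. Those of Rh2 and of Rh4 did not overlap either, and were also lower after HS. The difference of the HS effect between genotypes passed for 0% of 10753 genes by edgeR, with 300 at an unadjusted p under 0.05 and 0 by DESeq2, and opsins were between -0.16 and 0.27.

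Other photoreceptor genes covered a wider range of IP/input than the opsins. In control basal heads 10 of 22 phototransduction genes were enriched and 11 depleted, from the scaffold gene inaD at 1.46 ± 0.09 and the calmodulin gene Cam at 1.69 ± 0.16 to inaF-B at -1.51 ± 0.14, with a median of -0.02. Of the 20 opsin regulators 15 were enriched and 1 depleted, with a median of 0.66 against -0.05 over all genes, of which 3555 of 10080 were enriched and 3483 depleted. Among markers of other cells the lists differed. Neuron markers (7 of 9 enriched and 0 depleted, median 0.79) and muscle markers (4 of 7 enriched and 1 depleted, median 0.68) had similar medians. Fat body markers had a median of -0.55, with 1 of 9 enriched and 3 depleted. Glia markers were at -0.07 (2 of 7 enriched and 3 depleted), and pigment and cone cell markers at -0.105 (4 of 10 enriched and 4 depleted).

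The level of each opsin over the 15 input libraries was compared with that of 8892 genes, those whose log2 CPM averaged 1 or more. The points share library, scaling and genotype, so the correlations describe these libraries. Rh5 was most like CG11052 (r = 0.97), Mis12 (0.96), asRNA:CR45600 (0.96), IMPPP (0.95) and Cyp28a5 (0.94). Rh3 was most like AOX3 (0.97), Timp (0.96), stops (0.96), CG9689 (0.95) and bic (0.95). Rh4 was most like CG17292 (0.97), CG3626 (0.96), Mip (0.96), RpS9 (0.95) and His4r (0.95), and Rh6 had lower values, led by PPO2 (0.84), CG3306 (0.84), Adat1 (0.84), PPO1 (0.82) and TwdlG (0.81). For ninaE these were Tctp (0.93), CG8329 (0.91), CG5612 (0.91), CG32726 (0.90) and CG13912 (0.90), and for Rh2 they were CG3308 (0.92), Tctp (0.92), eIF3h (0.91), CG15412 (0.90) and Cnx99A (0.89). Rh7 followed Tbh (0.85), Ptip (0.85), LIMK1 (0.85), CG32432 (0.84) and CG43340 (0.84). Among the opsins themselves the pale pair Rh3 and Rh5 had the highest correlation (r = 0.85) and Rh5 and Rh6 the lowest (r = -0.49), while Rh4 and Rh6 were at 0.53.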

How the data were processed

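Libraries of input (15) and m6A-IP (15) from polyA+ head RNA were analysed. The authors trimmed reads with Trim Galore, aligned them to dm6 with STAR 2.7.3a and counted reads overlapping the exons of each gene, and raw counts were deposited without normalization. How strand and multi-mapped reads were counted is not given in the sources used here. The labels name 1 antibody for all libraries and the methods also name another, so antibody was not a term.

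Counts were tested in R 4.3.3 with edgeR 4.0.16 (filterByExpr with minimum count 10 and total 15, TMM, quasi-likelihood test, only the groups compared, Benjamini-Hochberg adjusted p under 0.05). The fits were tested on simulated data. A change in IP/input is an interaction term, and log2 CPM used a prior count of 2. Shares, promoter searches and figures were made with Python 3.11.15. Exon lengths came from Ensembl's annotation of the same build for 17517 genes, and 45 had none. Members and lists were chosen with earlier results of these data known. All opsins were named. From the other lists, up to 6 genes per comparison with the lowest p past the threshold could be named. Others (melt, wts, ss, and oc, trp, salm and Cam where they fall outside it) were named with their values known.

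Replicate numbers paired IP with input of one group (same RNA, correlation of deviations 0.36 to 0.67) and control HS with UAS HS inputs (0.18 to 0.41), but no other inputs. The floor of 3 counts covers counting error only, while SDs and SEs are over replicate libraries. Alternatives were DESeq2 1.42.0, its size factors, total library size, other filters, a block for the replicate number, a joint fit of all groups, leaving out each replicate and, chosen after seeing the data, leaving out libraries with Yp1 over 20 CPM.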

Additional observations from a re-analysis of the deposited data

How the results depend on the processing

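The opsins were counted in every library, and with 3 libraries a group several calls lay near the threshold. The part of depth or of group size in this was not tested. The number of opsins past the threshold moved as follows. In UAS against control in basal conditions it was 2 with DESeq2 and with all libraries in one fit. In UAS against control after HS it was 2 with total library size, DESeq2 or no filter, 3 with the replicate block and 4 with all libraries in one fit, and from 0 to 2 on leaving out 1 replicate. For HS in control, where 4 had risen, it was 3 with total library size, all of them lower, 2 with no filter, 1 without the libraries with Yp1 over 20 CPM and from 1 to 4 on leaving out 1 replicate. For HS in UAS, where 3 had risen, it was 5 with total library size, all of them lower, 1 with no filter, 1 without the libraries with high Yp1 and from 0 to 2 on leaving out 1 replicate. For the change in IP/input, UAS against control in basal conditions gave 1 with DESeq2 and 1 with the replicate block, and HS in UAS gave 2 with the replicate block.

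With total library size, HS in control put ninaE at -0.14, Rh2 at -0.067, Rh3 at -0.19, Rh4 at -0.038, Rh5 at -0.12 and Rh7 at -0.33, and HS in UAS put ninaE at -0.21, Rh2 at -0.14, Rh3 at -0.24, Rh4 at -0.18, Rh5 at -0.35, Rh6 at -0.36 and Rh7 at -0.050. These turned because that scaling moves the median of all genes by -0.36 and -0.37. It also turned Rh2 in UAS against control basal (-0.028), and the IP/input of Rh7 in control basal (-0.052), control HS (-0.034) and UAS HS (-0.14) and of Rh6 in control HS (-0.20). The other reversals were of values near 0 that had not passed the threshold, and their cause was not tested. Rh3 in RNAi against control was at -0.0017 with DESeq2 size factors, -0.0017 with DESeq2, -0.0031 with at least 10 counts in every library, -0.00025 with the replicate block and -0.0029 with all libraries in one fit. With no filter Rh7 for HS in control was at -0.0077 and Rh6 for HS in UAS at -0.012. Without the libraries with high Yp1, Rh2 in UAS against control basal was at -0.025 and ninaE after HS at 0.037. IP/input with DESeq2 size factors and with DESeq2 was 0.033 for Rh6 in RNAi and 0.027 in UAS HS, 0.0085 and 0.0086 for Rh6 and 0.0027 and 0.0023 for Rh7 in UAS basal, and 0.045 for ninaE in UAS HS. All libraries in one fit gave 0.026 for ninaE and 0.0079 for Rh6 in UAS HS.

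Leaving out 1 replicate turned the opsin share of counts in UAS against control (-0.057 to 0.091 points basal, -0.17 to 0.067 after HS) and the Rh5 share for HS in UAS (-0.21 to 0.65 points). Among input changes it turned Rh3 in RNAi (-0.022 to 0.017), ninaE (-0.0049 to 0.12), Rh2 (-0.046 to 0.075) and Rh7 (-0.015 to 0.13) in UAS basal, ninaE (-0.12 to 0.12) and Rh2 (-0.12 to 0.018) in UAS HS, Rh6 (-0.13 to 0.037) and Rh7 (-0.027 to 0.072) for HS in control, and Rh5 (-0.029 to 0.073) and Rh6 (-0.015 to 0.039) for HS in UAS. Among IP/input values it turned Rh6 in RNAi (-0.062 to 0.013), Rh7 in UAS basal (-0.11 to 0.040), and ninaE (-0.14 to 0.091) and Rh6 (-0.089 to 0.068) in UAS HS.

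Over all genes, the replicate block called 1195 instead of 672 for UAS against control HS input, and, where the numbers do not pair the libraries, 113 instead of 73 in RNAi and 171 instead of 287 in UAS basal input. For the change in IP/input it called 3 in RNAi, 826 in UAS basal, 1307 in UAS HS, 180 for HS in control and 1969 for HS in UAS, against 0, 0, 99, 0 and 4. DESeq2 called 186 in RNAi and 482 in UAS basal input, 274 for the heat by genotype input term, and 246, 368, 20 and 260 for the change in IP/input in UAS basal, UAS HS, HS in control and HS in UAS. All libraries in one fit called 1284 in UAS HS input and 42 for heat by genotype, and for the change in IP/input 2 in RNAi, 138 in UAS basal, 278 in UAS HS and 43 for HS in UAS. With no filter the counts were 195 in RNAi input, 15 for heat by genotype, and 3, 34, 63 and 8 for the change in IP/input in RNAi, UAS basal, UAS HS and HS in UAS, and at least 10 counts in every library gave 194 in UAS HS. Total library size split UAS HS input calls into 240 higher and 454 lower, against 329 and 343. It called 6658 for HS in control (479 higher, 6179 lower, against 1976 and 2361) and 6572 in UAS (488 and 6084, against 1938 and 2278), split IP/input calls into 2703 and 4780 in control HS (against 3545 and 3615) and 2624 and 4627 in UAS HS (against 3451 and 3677), and called 563 for the change with HS in UAS. DESeq2 size factors gave 1 there, and 11 higher and 110 lower for the change in UAS HS, against 25 and 74. On leaving out 1 replicate, UAS against control called 108 to 316 in basal and 176 to 515 in HS input.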
